A study of Mus musculus with 6 samples.

Results

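Chemokines are small secreted proteins that direct the migration of leukocytes and other cells, and they are named by the spacing of the cysteines near their amino end (CC, CXC, CX3C and C). They act on receptors coupled to G proteins, while atypical receptors (the Ackr genes) bind the same ligands without that coupling and take them up or carry them. In the uterus they are known for placing macrophages, NK cells and other leukocytes in the endometrium around the time of implantation. The genes described here are the 57 rows of 44788 in the count table whose symbols name a CC, CXC, CX3C or C chemokine or a receptor of these families, with Cxcl9, Cxcl10 and Cxcl15 left out. They comprised 36 ligands, 18 signalling receptors and 3 atypical receptors. The atypical receptor Ackr1 stands in the table under its older symbol Darc and is described beside the 57.

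The tissue was endometrium scraped from the uteri of female mice of the outbred ICR strain on day 4 of pregnancy, shortly before implantation. All 16 mice of the experiment had been given oral tamoxifen (2.7 µmol/kg) as newborns, from day 2 to day 5 of life, which induces adenomyosis, and endometrium was used where histology gave that diagnosis, so the series holds no mice without the model. After 75 days, 8 mice were injected intraperitoneally with the GnRH agonist Decapetyl at a daily 1.5 µg per 100 g of body weight from the 3rd to the 9th day of estrus, while 8 received its solvent. They were mated 4 weeks later. The 6 libraries comprised 3 with the agonist and 3 without it, here numbered 1 to 3 in each group. Whether a library came from 1 mouse or a pool is not stated in the labels; the tests therefore speak only of the spread among these libraries, part of which may be technical.

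Library totals ranged from 11720958 to 14104266 counts, so that 3 counts, the most that a count of 0 allows, corresponded to 0.204 to 0.276 CPM, the usual count scaled to library size, here after TMM normalization. Such limits cover counting error alone. Markers of epithelium, stroma and smooth muscle were abundant in every library. Over the 16581 genes with enough reads to be tested, edgeR's quasi-likelihood test called 0 genes, or 0%, at a Benjamini-Hochberg adjusted p under 0.05, with a smallest adjusted p of 0.156. At an unadjusted p under 0.05 it placed 691 genes higher and 844 lower with the agonist, and other tools called 420 genes (DESeq2), 268 (edgeR's likelihood ratio test) and 0 (limma-voom). Pairs of libraries from the same group were about as alike (Spearman 0.936 to 0.963 over genes, which are no replicates) as pairs from different groups (0.894 to 0.961). The 18S ribosomal RNA Rn18s-rs5 made up 3.31% of no-agonist library 2 and 1.94% of agonist library 1, where the others held 0.254 to 0.369%. Markers of oviduct and ovary summed to 195.8 CPM in agonist library 1 and to 7.47 to 24.3 CPM in the other 5. Ovgp1 alone gave 173 CPM of the sum in agonist library 1, and Star was also highest there, at 18.1 CPM. Foxj1 and Inha were not, with 1.52 and 3.05 CPM there and up to 6.77 and 4.04 CPM elsewhere.

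No member passed the test: 0 of the 32 members that were tested reached an adjusted p under 0.05, and their smallest adjusted p was 0.329. At an unadjusted p under 0.05 the test placed 0 members higher and 1 lower, the ligand Cxcl17, where 4.17% of all genes lay higher and 5.09% lower. The 3 libraries of a group lay entirely to one side of the other group for 2 of the 32 members (6.25%), Cxcl17 lower and the receptor Cxcr3 higher with the agonist, against 14.5% of all genes (6.94% higher and 7.61% lower). These shares did not exceed those of the table as a whole. The median fitted log2 fold change of the tested members was -0.24, against 0.02 over all genes, and 20 members lay below 0 (62.5%, against 47.8% of all genes). With limma-voom 16 of 32 lay below 0 and the median was -0.02, and on library totals alone 17 of 32. The ligands and the receptors leaned to different sides: 17 of 22 tested ligands had negative values and 6 of 7 tested signalling receptors positive values. That difference between ligands and receptors was not tested, and without no-agonist library 3 the median over members was 0.31, on the other side of 0.

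**Figure D1:**
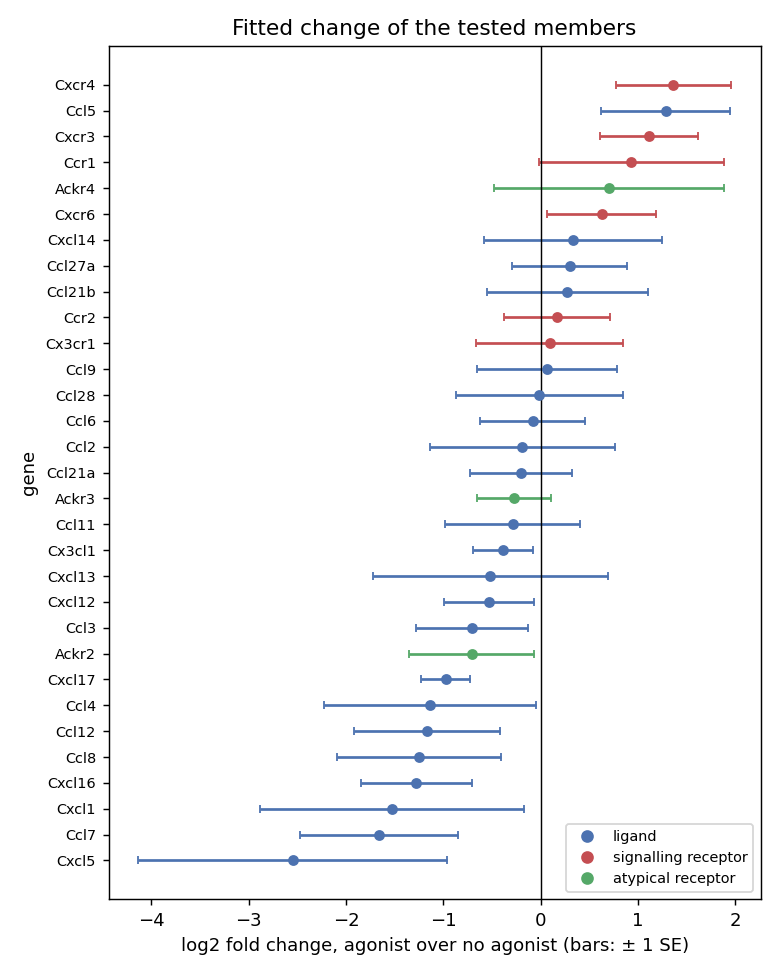
Fitted log2 fold change (agonist over no agonist, horizontal axis, bars ± 1 SE) of 31 tested members, ordered by value, with ligands in blue, signalling receptors in red and atypical receptors in green. The values run from -2.55 for Cxcl5 to 1.36 for Cxcr4, and the widest bars belong to Cxcl5 and Cxcl1, whose reads sat mostly in no-agonist library 3.

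A handful of ligands supplied most of the reads. Cxcl17 alone took 27.2% of all counts of the members, the 3 most abundant members 58.6% and the 6 most abundant 80.9%. Of the 57 members, 4 had a mean of at least 100 CPM, 13 at least 10 CPM and 32 at least 1 CPM, whereas 25 stayed under 1 CPM. Compared per length of annotated exons, Cxcl17 led with a level of 446 CPM per kb, followed by Cxcl14 with 133, Ccl21a with 56.9, Cxcl16 with 28.6, Ccl8 with 27.96 and Ccl28 with 26.1 CPM per kb. Among the signalling receptors Cxcr4 stood highest with a level of 7.03 CPM per kb, ahead of Cxcr6 with 2.60 and Cx3cr1 with 1.95 CPM per kb. Across the 6 libraries these levels moved widely: 25 of the 32 tested members spanned more than a 4-fold range between their lowest and highest library, and 13 spanned more than a 10-fold range.

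**Figure D2:**
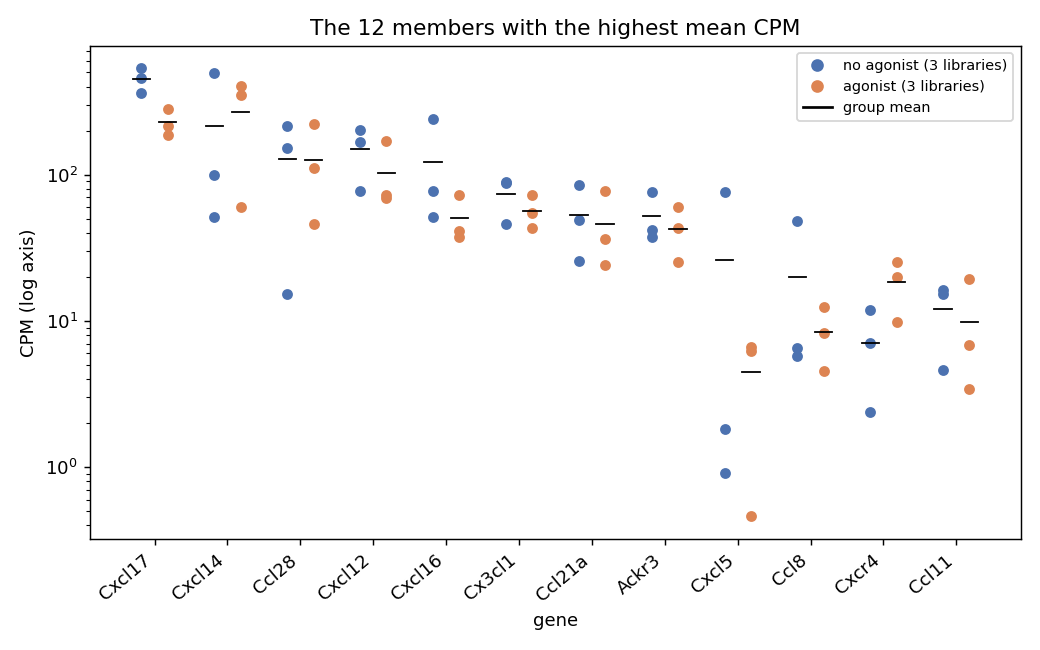
CPM (vertical log axis) of the 12 members with the highest mean, with a point for each no-agonist library (blue) and agonist library (orange) and a bar at each group's mean. Cxcl17 is the member whose groups separate, with 187 to 283 CPM in the agonist libraries and 359.5 to 533 CPM in the others, while Cxcl14, Ccl28 and Cxcl5 spread over a wide range inside a group.

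Reads of close relatives limit what can be said of some members, and the coding sequences show where. Ccl21a and Ccl21b, ligands of the lymphoid homing receptor Ccr7, have coding sequences of 399 bases in the GENCODE M21 annotation that differ at 2 bases, with 99.5% identity. The substitutions are T84A and C194T, counted from 1 at the first base of the start codon, with the base of Ccl21a first. The 31 bases around each are shown 5′ to 3′, with the differing base in capitals.
Ccl21a, coding bases 69 to 99: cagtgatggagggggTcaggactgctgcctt
Ccl21b, coding bases 69 to 99: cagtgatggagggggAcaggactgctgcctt
Ccl21a, coding bases 179 to 209: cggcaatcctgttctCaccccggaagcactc
Ccl21b, coding bases 179 to 209: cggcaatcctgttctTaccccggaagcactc
Reads that span neither base cannot be assigned within the coding sequence. The longest identical run between the pair was 205 bases. Cxcl2 and Cxcl3 shared 89.7% of their aligned coding bases, with an identical run of 98 bases. Counts of these pairs are therefore uncertain.

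The promoters of 3 further members are shown because these genes were read mostly in a single library, no-agonist library 3. Cxcl1, Cxcl2 and Cxcl3 attract neutrophils through Cxcr2 and lie close to each other on chromosome 5. The stretches run from 130 to 31 bases before the RefSeq start sites (GRCm38.p6, plus strand), 5′ to 3′, at chr5:90891115-90891214 for Cxcl1, chr5:90903769-90903868 for Cxcl2 and chr5:90785971-90786070 for Cxcl3. Capitals mark matches to the 10-letter NF-kappaB consensus, which overlap on the 2 strands and together cover 11 bases.
Cxcl1: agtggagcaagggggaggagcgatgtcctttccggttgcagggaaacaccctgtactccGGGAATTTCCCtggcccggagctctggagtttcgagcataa
Cxcl2: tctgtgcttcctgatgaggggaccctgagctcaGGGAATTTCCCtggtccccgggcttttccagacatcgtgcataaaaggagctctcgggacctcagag
Cxcl3: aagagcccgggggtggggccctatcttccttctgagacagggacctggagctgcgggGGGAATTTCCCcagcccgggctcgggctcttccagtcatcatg
All 3 carry the same letters, GGGAATTTCCC, from 71 to 61 bases before the start in Cxcl1, 97 to 87 in Cxcl2 and 73 to 63 in Cxcl3. RefSeq promoters were matched for 41 of the 57 members. On either strand of the 250 bases before the start, these 11 letters were in 3 of the 48 promoters of these genes (6.25%), those they were read from, and in 0.0426% of all 32851 promoters of the same length, and the wider consensus in 10 of the 48 (20.8%) and 7.25% of all promoters. The estrogen and progesterone response elements, searched on both strands as inverted repeats of GGTCA and of GNACA around 3 bases of any kind, were in 0 of the 48, against 0.0639% and 0.387% of all promoters. A match is a description of these letters, not evidence of binding.

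Cxcl17, a chemokine of mucosal epithelia (chromosome 7, 25400053 to 25412886, GRCm38), measured 359.5, 458 and 533 CPM in no-agonist libraries 1 to 3 and 283, 217 and 187 CPM in agonist libraries 1 to 3. Every agonist library lay below every library without it. The means were 229 ± 48.9 and 450.4 ± 87.2 CPM (SD, n = 3 each), a 1.97-fold lower level with the agonist (log2 fold change -0.98 ± 0.25 SE, adjusted p = 0.329 by edgeR's quasi-likelihood test). DESeq2 gave an adjusted p of 0.0307, the 1 member it called, where it called 2.45% of the 17140 genes with an adjusted p and 1.48% in this direction. Over the other settings and each library left out, the log2 fold change stayed between -1.15 and -0.81.

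Epithelial markers were lower in the same libraries. All 8 listed markers had negative log2 fold changes, 4 of them at an unadjusted p under 0.05 and 0 past the adjusted threshold, and none was at 0. Their summed level was 6292, 11260 and 8637 CPM without the agonist and 5271, 4820 and 3837 CPM with it. Set against that sum, Cxcl17 measured 5.71, 4.07 and 6.18% in the libraries without the agonist and 5.37, 4.495 and 4.88% with it. On this scale the groups overlapped, but Krt8, Krt19 and Krt7 weigh most in the sum, with means of 1730, 1539 and 1309 CPM. Their log2 fold changes were -0.88, -1.15 and -1.86. Epcam, Cdh1, Krt18 and Cldn3 changed less (-0.29, -0.39, -0.14 and -0.30), and Cldn4 by -0.94. The fitted value of Cxcl17, -0.98, lay above those of Krt19 and Krt7 and below those of the other listed markers. Krt19 and Krt7 were also the only listed markers whose groups did not overlap. Cxcl17 was not set against single markers, so the overlap of its percentages holds for this sum alone. In bulk tissue fewer cells of a type and less RNA per cell cannot be told apart.

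**Figure D3:**
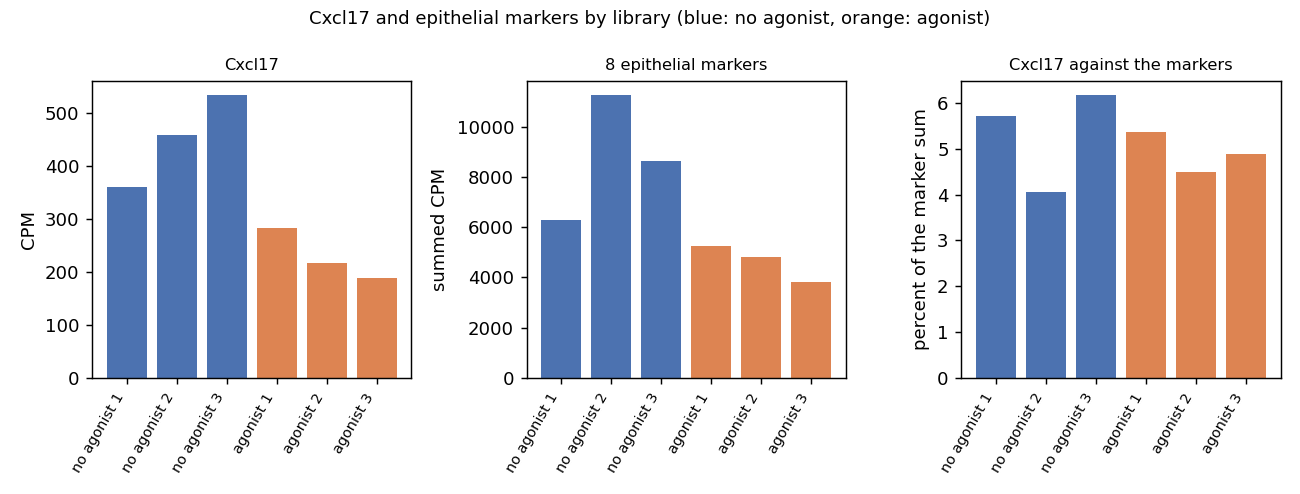
Cxcl17 in CPM (left), the summed CPM of 8 epithelial markers (middle) and Cxcl17 as a percent of that sum (right) in each of the 6 libraries. The first pair of panels separates the groups, and in the right panel the agonist libraries, at 4.495 to 5.37%, lie inside the range of the others, 4.07 to 6.18%. Krt8, Krt19 and Krt7 weigh most in the sum.

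Cxcl14, a CXC chemokine of epithelia and other barrier tissues (chromosome 13, 56288643 to 56296551), had the second highest mean level. It measured 493, 99.0 and 51.2 CPM without the agonist and 60.6, 349 and 401 CPM with it. No-agonist library 1 and agonist libraries 2 and 3 were high, and the other 3 libraries were low, in both groups (log2 fold change 0.33 ± 0.91, adjusted p = 0.952). The scavenging receptor Ackr4, which takes up Ccl19, Ccl21 and Ccl25, was lowest in 2 of the libraries low in Cxcl14: it measured 6.04, 4.87 and 0.367 CPM without the agonist and 0.321, 13.04 and 5.00 CPM with it (adjusted p = 0.907).

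Ccl28, a mucosal chemokine that attracts plasma cells and T cells through Ccr10 and eosinophils through Ccr3 (chromosome 13, 119623819 to 119654359), varied 14.4-fold over the libraries. It measured 15.4, 152 and 214 CPM without the agonist and 110.2, 221 and 46.3 CPM with it. The means were 126 ± 88.5 CPM with the agonist and 127 ± 101.6 CPM without it (SD, n = 3 each), and high and low libraries stood in both groups (log2 fold change -0.01 ± 0.86, adjusted p = 0.999). Its receptor Ccr10 had 24 of its 32 reads in agonist library 2, the library with the highest Ccl28, and 0 to 2 reads in each of the others. B and plasma cell markers, of which 4 of 7 were tested, also had their highest sum there, 214 CPM, against 66.4 and 96.5 CPM in the other agonist libraries and 31.2 to 59.5 CPM without the agonist. Their part in the Ccr10 reads was not tested.

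Other ligands of mucosa, skin and B cell follicles were scarce. The thymic and intestinal ligand Ccl25 had 19, 13 and 6 reads without the agonist and 5, 5 and 7 with it, too few to be tested. Ccl27a, a skin-homing ligand of Ccr10, measured 1.39 to 4.41 CPM without the agonist and 1.56 to 4.89 CPM with it. Ccl20, the ligand of Ccr6, had 7 reads in all, 6 of them in no-agonist library 3. Cxcl13, which organizes B cell follicles, measured 0 to 3.86 CPM without the agonist and 0.272 to 2.49 CPM with it, and its receptor Cxcr5 had 11 reads in all.

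Cx3cl1 and Cxcl16 are made as membrane-bound proteins that tether cells and are released by proteases such as ADAM10. Cxcl16 (chromosome 11, 70453983 to 70459984) measured 77.2, 51.2 and 239 CPM without the agonist and 72.7, 37.5 and 41.2 CPM with it. No-agonist library 3 stood above all others, and agonist library 1 lay within the range of the other group (log2 fold change -1.28 ± 0.57, adjusted p = 0.551). Without no-agonist library 3 the log2 fold change was -0.34. Cx3cl1, also called fractalkine (chromosome 8, 94772009 to 94782427), varied least of the tested members, 2.05-fold over the libraries, with 87.3, 45.9 and 89.1 CPM without the agonist and 72.5, 43.5 and 54.7 CPM with it (log2 fold change -0.38 ± 0.31, adjusted p = 0.762).

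Their receptors did not follow them. Cxcr6, the receptor of Cxcl16 on T and NKT cells, measured 2.11, 3.13 and 6.61 CPM without the agonist and 7.94, 7.34 and 3.00 CPM with it, with overlapping groups (log2 fold change 0.63 ± 0.56, adjusted p = 0.796). Cx3cr1, the fractalkine receptor of monocytes and macrophages, measured 17.96, 1.74 and 5.79 CPM without the agonist and 8.18, 13.5 and 5.54 CPM with it (adjusted p = 0.991). Its highest and lowest values were both in the group without the agonist.

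Cxcl12, a ligand of stromal and endothelial cells that retains and guides leukocytes (chromosome 6, 117168535 to 117181367), measured 167, 77.4 and 203 CPM without the agonist and 169, 69.1 and 72.2 CPM with it. Agonist library 1 lay with the high libraries of the other group and no-agonist library 2 with the low ones, so the groups overlapped (log2 fold change -0.53 ± 0.46, adjusted p = 0.785). When the pair of libraries with the most 18S ribosomal RNA, no-agonist library 2 and agonist library 1, was left out, the log2 fold change was -1.38 with an adjusted p of 0.182. Its signalling receptor Cxcr4 (chromosome 1, 128588199 to 128592293) had the highest fitted log2 fold change of the members, 1.36 ± 0.59, with an adjusted p of 0.540. Cxcr4 measured 11.9, 7.05 and 2.39 CPM without the agonist and 9.79, 25.3 and 19.9 CPM with it. The groups overlapped by agonist library 1, which lay below no-agonist library 1. Ackr3, the atypical receptor that scavenges Cxcl12, measured 75.9, 42.1 and 37.5 CPM without the agonist and 25.1, 60.3 and 43.1 CPM with it (log2 fold change -0.28 ± 0.38, adjusted p = 0.882).

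Receptors and ligands of T and NK cells were scarce. Cxcr3, the receptor of activated T and NK cells for the interferon-induced ligands, was the receptor whose groups did not overlap. It measured 0.755, 0.435 and 0.643 CPM without the agonist and 1.28, 0.883 and 1.85 CPM with it, from 5 to 24 reads in a library, so counting error is large (log2 fold change 1.11 ± 0.50, adjusted p = 0.558). NK and T cell markers lay to the same side: 9 of 10 tested of 12 listed had positive log2 fold changes, 3 of them at an unadjusted p under 0.05 and 0 past the adjusted threshold. Their sum was 10.5 to 24.7 CPM without the agonist and 28.2 to 52.2 CPM with it, and none of the 12 was at 0 in all libraries. As a percent of that sum Cxcr3 measured 4.57, 4.13 and 2.60% in no-agonist libraries and 4.56, 2.20 and 3.54% in agonist libraries, and on this scale the groups overlapped.

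Ccl5, a ligand that T and NK cells release, measured 0.981, 0.957 and 0.459 CPM without the agonist and 1.20, 0.951 and 3.77 CPM with it (log2 fold change 1.29 ± 0.66, adjusted p = 0.618). Agonist library 3 stood above the rest, and without it the log2 fold change was 0.42. Xcl1, a ligand of NK and T cells for the dendritic cell receptor Xcr1, was under the count minimum with 3, 0 and 2 reads without the agonist and 3, 21 and 26 with it. Nearly all of its reads came from agonist libraries 2 and 3, the libraries with the most reads of the NK receptor Ncr1. Xcr1 itself had 18, 0 and 20 reads without the agonist and 7, 10 and 7 with it.

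Of the ligands that attract neutrophils through Cxcr2, the members Cxcl1, Cxcl2, Cxcl3 and Cxcl5 had their highest level in no-agonist library 3. Cxcl5 (chromosome 5, 90759360 to 90761624) measured 0.906, 1.83 and 75.8 CPM without the agonist and 6.26, 6.66 and 0.462 CPM with it, a 164-fold range and the widest of the tested members with a read in every library. Its log2 fold change was -2.55 ± 1.59 (adjusted p = 0.682), and without no-agonist library 3 it was 1.71. Cxcl1 had 0, 13 and 76 reads without the agonist and 23, 5 and 8 with it, and Cxcl2 had 2, 0 and 110 reads against 4, 1 and 0. Cxcl3 had 15 reads in all, 9 of them in no-agonist library 3. The platelet ligand Ppbp, which the rule does not hold, had 11, 4 and 3 reads without the agonist and 7, 1 and 1 with it, so it did not peak there. The receptors were near absent: Cxcr2 had 36 reads in all, of which 12 were in no-agonist library 3 and 16 in agonist library 2, and Cxcr1 had 3. Scaled to library size, Cxcr2 measured 1.09 CPM in agonist library 2 and 1.10 CPM in no-agonist library 3.

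The summed neutrophil markers did not peak there. The 9 listed markers summed to 17.6, 4.00 and 13.6 CPM without the agonist and 16.5, 18.7 and 16.6 CPM with it. The granule gene Mpo made up most of the sum in agonist library 3. It measured 8.15 CPM in no-agonist library 1 and 1.19 CPM in no-agonist library 3. The sum thus rests partly on single genes, and the number of neutrophils was not tested. The granule genes Elane, Ngp and Camp had 4, 2 and 1 reads in all. S100a9 and S100a8, abundant neutrophil proteins, both had the most reads in agonist library 2. S100a9 had 0, 0 and 57 reads without the agonist and 34, 61 and 1 with it, and S100a8 had 0, 0 and 9 reads against 8, 33 and 1. Scaled to library size, S100a9 was highest in no-agonist library 3, at 5.24 CPM against 4.14 CPM in agonist library 2. The NF-kappaB feedback gene Tnfaip3 measured 13.4, 14.4 and 89.0 CPM without the agonist and 15.1, 6.79 and 11.8 CPM with it, and the inhibitor Nfkbia 279, 354 and 546 CPM against 255, 157 and 144 CPM, so that no-agonist library 3 was the highest for both. The cytokines Il1a and Tnf, inducers of these ligands, were also highest there, at 10.9 and 5.97 CPM. Smooth muscle markers too had their highest sum in that library, 16710 CPM against 2570 to 10510 CPM in the others. Their part in the ligand levels was not tested.

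**Figure D4:**
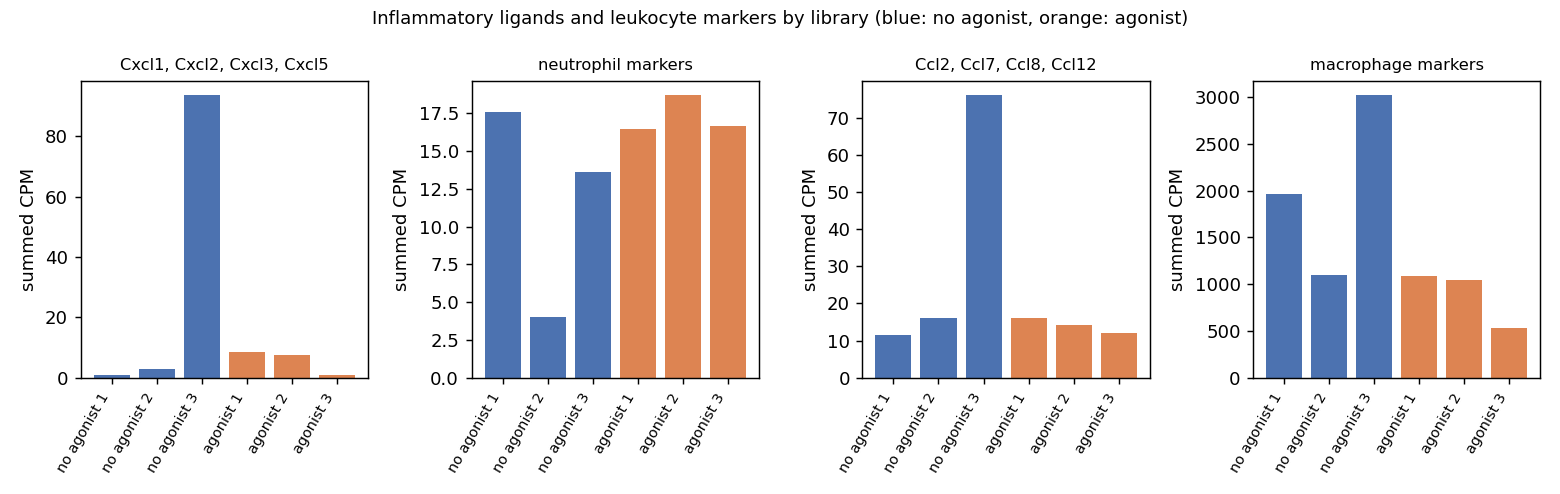
Summed CPM per library of the neutrophil-attracting ligands, of neutrophil markers, of the monocyte-attracting ligands and of macrophage markers (blue, no agonist, and orange, agonist). No-agonist library 3 holds 93.7 CPM of the first ligand group and 76.1 CPM of the other, above all other libraries, while its neutrophil marker sum of 13.6 CPM lies within the range of 4.00 to 18.7 CPM. Cd14 weighs most in the macrophage sum.

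The ligands grouped here as monocyte-attracting showed the same library. Ccl8 (chromosome 11, 82115185 to 82116799) measured 6.57, 5.74 and 48.0 CPM without the agonist and 12.5, 4.55 and 8.31 CPM with it (log2 fold change -1.25 ± 0.84, adjusted p = 0.715). Without no-agonist library 3 that value was 0.46. Ccl7 measured 2.79, 8.70 and 18.9 CPM without the agonist and 1.28, 6.32 and 1.92 CPM with it (log2 fold change -1.66 ± 0.81, adjusted p = 0.589), and -0.83 without that library. Ccl12 measured 1.59, 1.39 and 6.06 CPM without the agonist and 2.17, 1.29 and 0.539 CPM with it (adjusted p = 0.694). Ccl2 was also highest in no-agonist library 3, at 3.03 CPM. The 4 ligands together summed to 11.6, 16.2 and 76.1 CPM without the agonist and 16.2, 14.2 and 11.9 CPM with it. Apart from no-agonist library 3 the sums of the groups lay close together.

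Ccr2, the receptor of Ccl2, Ccl7 and Ccl12 on inflammatory monocytes, was also highest in that library, by less. It measured 6.72, 3.83 and 17.9 CPM without the agonist and 10.4, 12.4 and 9.16 CPM with it (log2 fold change 0.17 ± 0.54, adjusted p = 0.962). Macrophage markers, 13 of 14 listed in the table and none at 0 in all libraries, summed to 1961, 1094 and 3021 CPM without the agonist and 1088, 1045 and 530.2 CPM with it. Cd14 weighed most in this sum, with a mean of 803 CPM, ahead of Itgam with 194 and Lyz2 with 177 CPM. The groups did not overlap for 3 of the 12 tested markers, Cd14, Itgam and Cd68, all lower with the agonist and none past the adjusted threshold. They overlapped for the other tested markers, Lyz2 and the C1q genes among them. The receptor Csf1r, which defines macrophages, measured 59.9, 7.83 and 29.6 CPM without the agonist and 29.4, 23.0 and 23.8 CPM with it. The number of macrophages was not tested. No-agonist library 2 was the lowest for Csf1r, Ccr2, Cx3cr1 and Ccr1 alike.

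Among the other inflammatory CC ligands, Ccl6 and Ccl9, which macrophages release, differed little between the groups. Ccl6 measured 3.13 to 12.9 CPM without the agonist and 5.85 to 11.2 CPM with it, and Ccl9 0.870 to 7.99 and 3.67 to 7.38 CPM. Ccl3, a ligand of inflammatory leukocytes, measured 1.06, 0.609 and 1.75 CPM without the agonist and 0.802, 0.883 and 0.385 CPM with it (adjusted p = 0.766), and its close relative Ccl4 at most 3.67 CPM; both were highest in no-agonist library 3. Ccr1, a receptor of Ccl3 and related ligands, measured 0.377, 0.0870 and 2.30 CPM without the agonist and 1.77, 2.51 and 0.923 CPM with it (adjusted p = 0.831), and the groups overlapped.

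Eotaxins attract eosinophils through Ccr3. Ccl11, the eotaxin of the uterine stroma, measured 4.60, 16.2 and 15.3 CPM without the agonist and 3.45, 6.86 and 19.2 CPM with it, with high and low libraries in both groups (log2 fold change -0.29 ± 0.69, adjusted p = 0.942). Ccl24 had 29 reads, Ccl26 had 0, and Ccr3 had 20 with no more than 6 in a library. Eosinophil markers were also scarce, with sums over 4 genes of 1.43, 0.696 and 1.47 CPM without the agonist and 0.241, 1.09 and 0.0769 CPM with it. The granule genes Epx and Prg2 had 0 and 3 reads in all, and the receptor Il5ra, too scarce to be tested, had 16, 8 and 11 reads without the agonist and 0 in each library with it.

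Of the lymphoid homing ligands, Ccl21a (chromosome 4, 42772860 to 42773993) measured 48.8, 25.6 and 84.5 CPM without the agonist and 77.3, 24.2 and 36.6 CPM with it (log2 fold change -0.20 ± 0.53, adjusted p = 0.949). Ccl21b measured 2.04 to 6.80 CPM without the agonist and 1.49 to 10.4 CPM with it, 4.01 to 11.8% of the reads of the pair, which the near-identical sequences above make uncertain. Ccl21a was high in no-agonist library 3 and agonist library 1. The same 2 libraries had the highest sums of lymphatic endothelial markers, 62.5 and 71.7 CPM, where the others had 17.6 to 54.0 CPM. The part of these cells in the Ccl21a level was not tested. Ccr7 had 43 reads in all and Ccl19 had 8.

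Across all roles no-agonist library 3 was the highest library for 18 of the 32 tested members (56.2%), while it was the highest for 22.4% of all tested genes. No-agonist library 2 was the highest for 0 members and the lowest for 9 (28.1%, against 17.6% of all genes). After centring each gene on the 6 libraries, the median level of the members on the log2 scale was 0.84 in no-agonist library 3 and -0.56 in no-agonist library 2, and between -0.22 and 0.23 in the other 4. The 2 libraries at the ends of this range belonged to the same group.

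**Figure D5:**
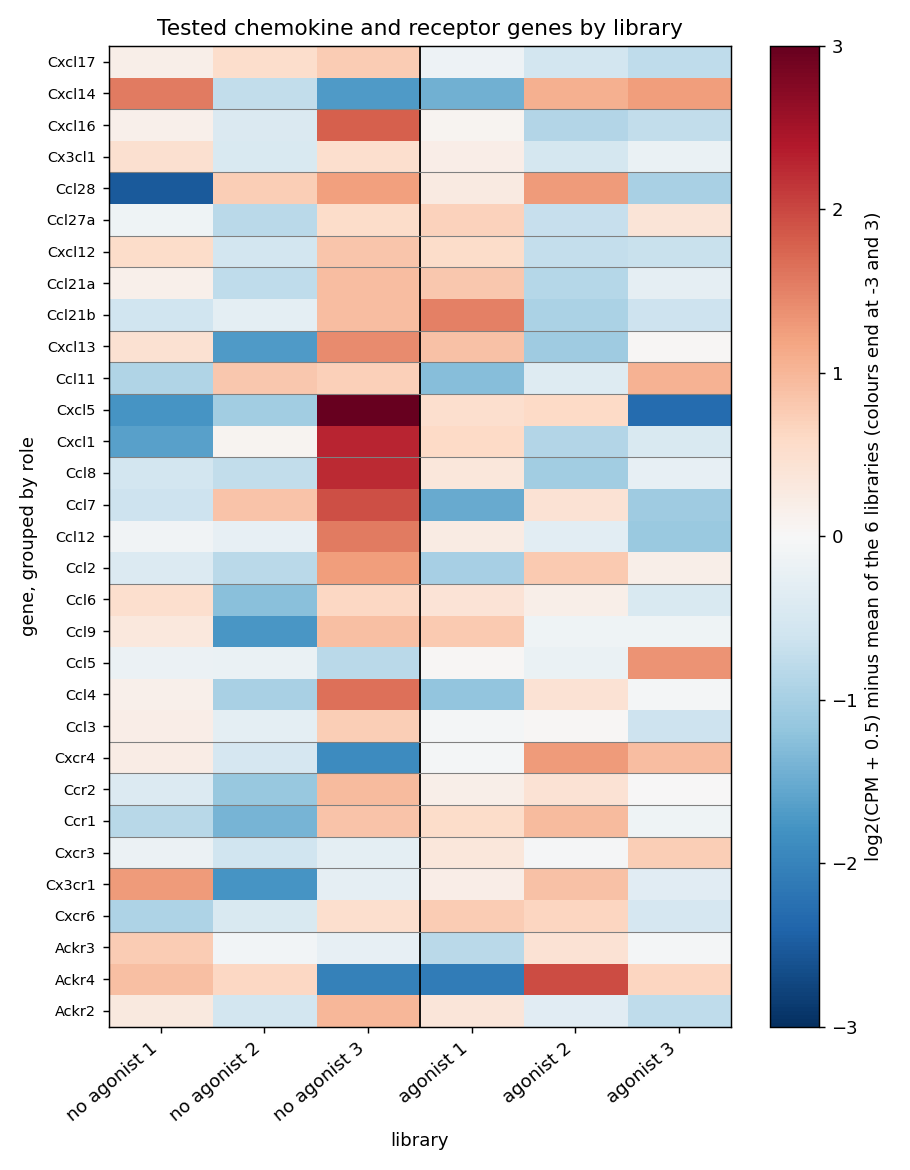
Level of 31 tested members (rows, grouped by role) in each library (columns), as log2(CPM + 0.5) minus the gene's mean over the 6 libraries, from blue (low) to red (high), with colours ending at -3 and 3. No-agonist library 3 is the highest library for 18 of the 31 rows, with the reddest cells among the inflammatory ligands and low cells for Cxcl14, Cxcr4 and Ackr4.

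Darc, the older symbol of Ackr1, the receptor by which venules carry inflammatory chemokines to their surface, measured 2.79, 3.22 and 4.50 CPM without the agonist and 7.78, 6.18 and 5.16 CPM with it. All agonist libraries lay above the others (log2 fold change 0.86 ± 0.37, adjusted p = 0.540). Blood endothelial markers were higher with it in 7 of 7 genes, 2 of them at an unadjusted p under 0.05 and 0 past the adjusted threshold, with none at 0 and sums of 306 to 445 CPM against 220 to 289 CPM. As a percent of that sum Darc measured 0.965 to 2.05% without the agonist and 1.60 to 1.75% with it, so the groups overlapped. Ackr2, which scavenges inflammatory CC ligands, measured 0.870 to 3.49 CPM without the agonist and 0.692 to 2.09 CPM with it (adjusted p = 0.799).

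The 25 members under the count minimum included 4 with 0 reads in any library: the receptor Ccr8, the eotaxin Ccl26, Ccl21c and Ccl27b. Ccr4 had 1 read, Ccl1 had 2, Ccr6 had 7 and Ccr9 had 33. The ligands Ccl17 and Ccl22, which act through Ccr4, and Cxcl11, a ligand of Cxcr3, had 25, 74 and 20 reads, of which 16, 39 and 17 came from no-agonist library 3. For members at 0 the depth allows a level of up to 0.204 to 0.276 CPM in a library. That limit may not hold for Ccl21c and Ccl27b, whose reads may have been left out or counted for close relatives. Ccl27b shared an identical coding run of 119 bases with Ccl27a, and Ccl21c was not in GENCODE M21, so its sequence was not compared.

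Of the genes that couple chemokine receptors to the cell, all 33 listed were tested; 16 lay higher and 17 lower with the agonist, 2 and 2 of them at an unadjusted p under 0.05, 0 past the adjusted threshold, and the median log2 fold change was -0.05. Arrb1, an arrestin that ends receptor signalling, measured 89.1, 78.8 and 85.1 CPM without the agonist and 119.8, 118.8 and 124.8 CPM with it, and Adrbk2, a kinase of active receptors, 14.8, 26.5 and 29.9 CPM against 36.1, 39.5 and 50.8 CPM. Pik3cg, the lipid kinase behind leukocyte migration, measured 31.5, 44.6 and 49.1 CPM without the agonist and 29.0, 20.4 and 13.0 CPM with it. The groups did not overlap for these 3 genes (adjusted p = 0.401, 0.461 and 0.406 in that order) or for Jak2, Gnb1 and Adrbk1, 6 of 33 where 14.5% of all genes did not. Of the 9 tested chemokine relatives outside the rule, such as Mif and Cd74, 3 lay higher and 6 lower, and of 6 proteases that shed or cut chemokines 4 lay higher and 2 lower, with 0 of either at an unadjusted p under 0.05. Of 9 glycosaminoglycan genes, on whose chains chemokines are held, 4 lay higher and 5 lower, and the syndecan Sdc4 measured 199, 201 and 141 CPM without the agonist and 279, 333 and 442 CPM with it (adjusted p = 0.332). The list of inducers of chemokines also held NF-kappaB genes, among them the inhibitor Nfkbia and the feedback gene Tnfaip3, which are not inducers. Of its 11 tested genes 10 lay lower, Nfkbia among them (adjusted p = 0.391), where 47.8% of all genes lay lower. The interleukin-1 receptor Il1r1 was the exception, at 40.9, 23.9 and 13.7 CPM without the agonist and 65.2, 62.2 and 268.5 CPM with it (adjusted p = 0.351).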

How the data were processed

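RNA of 6 endometrium libraries (3 per group) was read in single-end mode by an Ion Proton instrument, per the labels' protocols. The authors' deposited counts are whole-number reads per gene symbol, placed on mm10 (GRCm38) and counted with HTSeq 0.6.1, per the submitters' processing notes; aligner, annotation and strand setting were not given in the sources used. Genes passed filterByExpr, were scaled by TMM and were compared with edgeR's quasi-likelihood F-test, with Benjamini-Hochberg adjustment over all genes tested (R 4.3.3, edgeR 4.0.16, limma 3.58.1, DESeq2 1.42.0). The test was checked on simulated data, with a pass mark set only at a smaller spread between libraries than in these data. The check therefore does not show which changes the test could find here. Errors of log2 fold changes are their absolute value over the square root of F. Exon lengths, coordinates and coding sequences are from GENCODE M21 (GRCm38), which held 56 of the 57 symbols, and promoters from RefSeq (GRCm38.p6). Described in full are the 12 tested members with the highest mean CPM, the 12 with the smallest p, those whose groups do not overlap, and partners of these. The members and lists were chosen with earlier results of these data known, and the ratios to marker sums and the motifs after seeing the values. Of the 32 tested members 1 is counted but not reported here by itself. Alternatives were other tests, scalings and filters, and leaving out libraries.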

Additional observations from a re-analysis of the deposited data

How the results depend on the processing

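No paired analysis was possible because the labels give the libraries of the 2 groups no shared replicate numbers. Against 0 genes called by edgeR's quasi-likelihood test, 420 were called by DESeq2, 268 by the likelihood ratio test, 36 with no filter on low counts and 7 without both libraries rich in 18S RNA, and 0 to 1 with each library left out. Members called went from 0 to 1 with DESeq2 (Cxcl17). Members whose groups do not overlap went from 2 to 4 of 53 with no filter (against 11.3% of all genes). With a stricter filter they were 1 of 28 (14.6% of all genes), and without both 18S-rich libraries 17 of 35 (41.8% of all genes). With each library left out they were 4 to 9 of 34 to 38, against 20.4 to 29.2% of all genes. Leaving libraries out leaves fewer of them to overlap. The median log2 fold change of the members ranged from -0.50 to 0.31 with each library left out, and was -0.05 on library totals alone, where that of all genes was 0.18. Directions reversed under limma-voom for Ccl28 (0.39), Ccl6 (0.10), Ccl21b (-0.081), Cxcl1 (0.28), Cxcl13 (0.48) and Ccl2 (0.013); on library totals alone for Ccl28 (0.18), Ccl6 (0.061) and Ccl2 (0.010); on upper-quartile factors for Ccl28 (0.039); and without both 18S-rich libraries for Ccl28 (0.23), Ccl11 (0.39), Ccr2 (-0.18), Cx3cr1 (-0.31), Ccl9 (-0.83), Ccl21b (-1.32) and Ccl27a (-0.36). With each library left out, the lowest and highest values of the 18 members that reversed were -0.12 and 1.84 for Cxcl14, -0.70 and 0.60 for Ccl28, -0.79 and 0.31 for Ccl21a, -0.60 and 0.11 for Ackr3, -3.12 and 1.71 for Cxcl5, -1.69 and 0.46 for Ccl8, -1.22 and 0.12 for Ccl11, -0.20 and 1.01 for Ccr2, -0.49 and 0.23 for Ccl6, -0.38 and 1.27 for Cx3cr1, -0.50 and 1.27 for Ackr4, -0.42 and 0.69 for Ccl9, -1.11 and 0.99 for Ccl21b, -0.038 and 0.79 for Ccl27a, -2.47 and 0.74 for Cxcl1, -1.38 and 0.55 for Cxcl13, -0.90 and 1.26 for Ccl2 and -1.88 and 0.30 for Ccl4. The cause was not tested. The other 13 of the 31 members described, Cxcl17, Cxcr4 and Cxcr3 among them, kept their direction under all 15 settings that could give a value. Counting error limits the 25 members under the count minimum.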
